A study of Mus musculus with 32 samples.

Results

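The cells described here are 8 single cells of the mouse subventricular zone in which Flt1, a receptor for vascular endothelial growth factors, was read at 1 FPKM or more. FPKM counts fragments per kilobase of transcript, scaled to the mapped fragments of the library. The members were chosen by their measured Flt1 FPKM alone, with that threshold applied to cells 1 to 17, which gave cells 1, 2, 3, 6, 7, 8, 16 and 17. The other 9 of these 17 cells serve as the comparison. The series holds 32 libraries from the subventricular zone at postnatal day 21: 28 libraries of 1 cell each and 4 pools of 10 cells. Cells 18 to 28 were not compared, because they form separate sets of libraries. The labels give no strain, genotype, treatment, sort or animal for any library, so the cells stand as 1 sample and no p-value is given anywhere.

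The subventricular zone lines the lateral ventricles and keeps neural stem cells after birth. A plexus of blood vessels runs through it, and stem and progenitor cells lie against these vessels. Endothelial cells form the inner wall of every vessel. In the brain they are joined by tight junctions and carry transporters for glucose, amino acids, hormones and drugs, which together make the blood-brain barrier. Along the vessel tree their genes differ by zone: arteries, capillaries and veins each have markers of their own.

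Because Flt1 chose the members, its values are a description. In the order of cells 1, 2, 3, 6, 7, 8, 16 and 17, which is kept for all lists of 8 values below, Flt1 stood at 123, 452, 501, 368, 656, 1008, 67.02 and 594 FPKM. The member nearest the threshold was cell 16 at 67.02 FPKM, and the nearest cell outside it was cell 9 at 0.344 FPKM. No cell lay between these values, so the choice of 1 as threshold did not matter from there up to 67.02. In the other 9 cells Flt1 was low but above 0 in each, from 0.0424 FPKM, while in cells 18 to 28 it reached at most 0.0444.

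The depth of the libraries is known only roughly. Estimated from the step between low values of 1738 single-exon genes, in units of 1e6 fragments, the 8 cells held 6.17 to 20.4 and the other 9 cells 12.9 to 18.6. The number of genes found, meaning genes at FPKM of at least 1, ran from 3062 in cell 1 to 6979 in cell 6, with a median of 5397, against 3916 to 10169 with a median of 6962 in the other 9. Gene number therefore moved with the grouping, and its part in the differences below was not tested. A level of exactly 0 need not mean an absent transcript, since Psmc3, a subunit of the proteasome, was listed at 0 in cells 7 and 17 beside 966 FPKM in cell 1. Such genes are called listed at 0.

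Pools 3 and 4 were not independent of these cells. Genes that reached 200 FPKM in 1 of the 17 cells and under 2% of that value in the other 16 were followed into the pools. Cells were grouped by these genes: a cell went to pool 3 or 4 when each of its genes there reached a set small share of the cell's FPKM. Cells 1, 2, 3, 6, 7, 8, 9, 10, 16 and 17, with 56 such genes, went to pool 3. The other 7 cells, with 61, went to pool 4. That all 56 were found in pool 3 and all 61 in pool 4 follows from this grouping. Not set by it, 3 of the 61 were found in pool 3 and 5 of the 56 in pool 4. Per cell the share was nearly fixed: in pool 3 the median was 20.3% of the cell's own FPKM for cell 1, 3.54% for cell 2, 10.6% for cell 3 and 0.773% for cell 6. It was 13.8% for cell 7, 10.7% for cell 8, 15.6% for cell 16 and 12.3% for cell 17. Pool 3 thus shows the private genes of 10 single cells, the same number as its label states, and these 10 include all 8 Flt1 cells. Pools 1 and 2 held 21 and 32 of the 56 genes, with no fixed share. Only pools 1 and 2 are used below as libraries apart from the 17 cells.

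**Figure D1:**
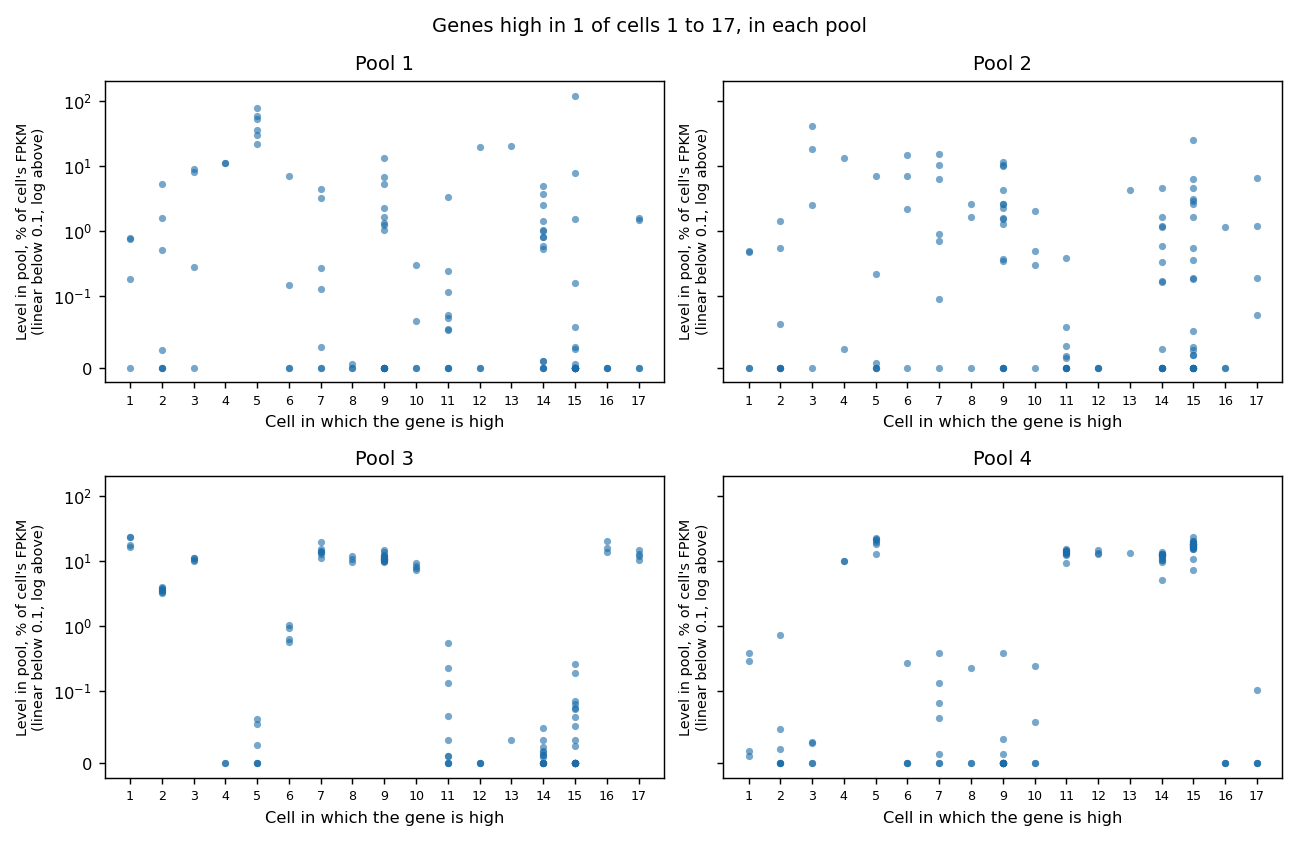
Each point is a gene that reached 200 FPKM in 1 of cells 1 to 17 and under 2% of that in the others; the vertical axis gives its level in a pool as a percentage of its level in that cell (linear below 0.1, logarithmic above). In pool 3 the 10 cells 1, 2, 3, 6 to 10, 16 and 17 form tight bands at medians of 0.773% to 20.3%, and in pool 4 the other 7 cells do at 9.97% to 20.2%. Pools 1 and 2 show scatter for most cells, while every gene of cells 4, 5 and 13 lies at 10.9% or more in pool 1.

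Of the 4 further endothelial markers, Cldn5, Ly6c1 and Egfl7 were high in all 8 cells and Pecam1 in all but cells 1 and 8. Cldn5, the main claudin of brain endothelial tight junctions (chromosome 16, 18776847 to 18778260, GRCm38), stood at 1824, 2276, 2998, 2409.8, 1238, 2981, 1114 and 2183 FPKM. Egfl7, a secreted protein of vessel walls (chromosome 2, 26580014 to 26593120), stood at 4074, 2039, 1653, 475, 624, 5475, 1110.2 and 2314 FPKM. Neither range reached that of the other 9 cells, where Cldn5 was at 0.115 to 37.2 FPKM and Egfl7 at 0 to 1.71. Ly6c1, a surface antigen of the Ly6 family (chromosome 15, 75045017 to 75048837), stood at 1766, 15779.5, 8672, 5826, 6497, 3939, 912 and 5990.4 FPKM against 0.193 to 40.2. Its level was lowest in cell 16, the cell that was also lowest in Flt1.

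Pecam1, an adhesion protein at contacts between endothelial cells (chromosome 11, 106654217 to 106750628), was uneven. It stood at 0.482, 482, 255, 117, 102, 2.64, 168 and 96.3 FPKM, so that cell 1 fell within the 0.171 to 1.52 FPKM of the other cells and cell 8 was close above them. Cells 18 to 28 held Pecam1 at up to 14.4 FPKM, while Cldn5, Ly6c1 and Egfl7 were listed at 0 in each of them. Flt1 itself lies on chromosome 5, 147561604 to 147726011. On the scale of log2(FPKM + 1), the means over the 8 cells were 8.49 ± 1.31 (SD, n = 8) for Flt1, 10.98 ± 0.53 for Cldn5, 12.16 ± 1.30 for Ly6c1, 10.70 ± 1.23 for Egfl7 and 5.87 ± 2.99 for Pecam1. The differences from the other 9 cells were 8.27, 9.82, 10.47, 9.93 and 5.10. Of the 4 markers that the choice of cells did not use, Cldn5, Ly6c1 and Egfl7 thus went with the endothelial label in all 8 cells, and Pecam1 in the cells other than 1 and 8.

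**Figure D2:**
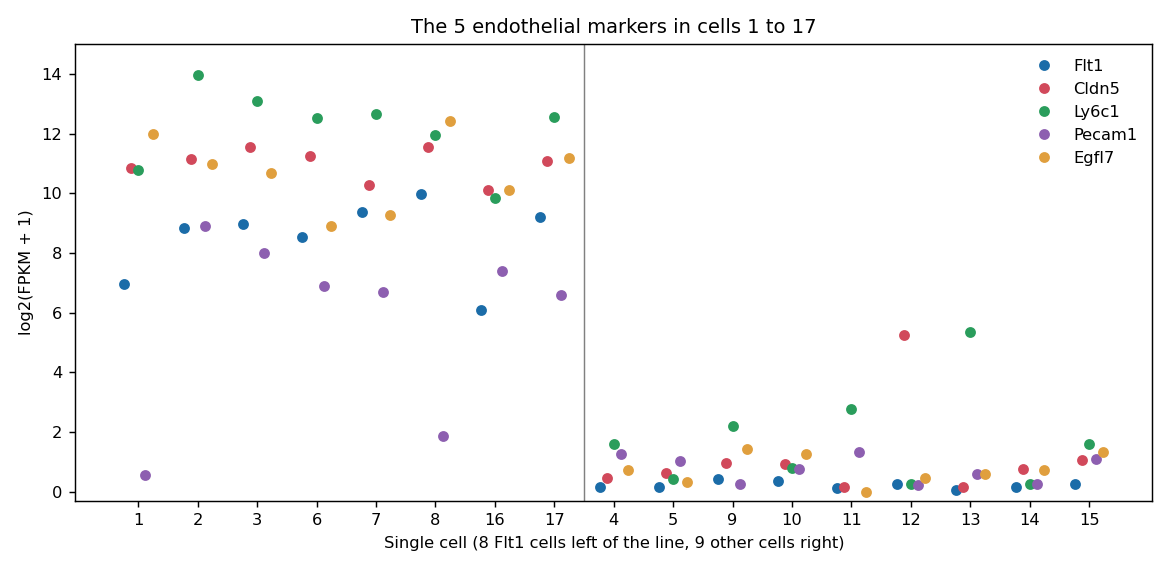
Levels of the 5 markers as log2(FPKM + 1) on a linear axis, 1 point per gene and cell, with the 8 Flt1 cells left of the line and the 9 other cells right. The 8 cells lie above 6 for Flt1, Cldn5, Ly6c1 and Egfl7; Pecam1 is near the level of the other cells in cells 1 and 8.

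The promoters of 4 genes that were found in the 8 cells are shown so that the start regions of genes that were high together can be compared. They are Flt1, Cldn5, Eng and Abcb1a, and each has 1 start in the RefSeq table (GRCm38.p6). Each run is the 250 bases before the start, 5′ to 3′ on the gene's strand. Capitals mark matches on either strand. The letters searched were AGGAAG, a core bound by ETS factors, and its other form CGGAAG. For the GATA family they were AGATAA. The SOX family was searched with ACAATG and the forkhead family with TGTTTAC. No letters overlap between these motifs in the 4 windows.
Flt1 (chr5:147726012-147726261, minus strand): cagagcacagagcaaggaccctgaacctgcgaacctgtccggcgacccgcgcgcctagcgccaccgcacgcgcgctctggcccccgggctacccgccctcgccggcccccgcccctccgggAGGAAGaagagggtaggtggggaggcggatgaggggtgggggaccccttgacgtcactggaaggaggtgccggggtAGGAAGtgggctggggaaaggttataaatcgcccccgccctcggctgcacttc
Cldn5 (chr16:18776597-18776846, plus strand): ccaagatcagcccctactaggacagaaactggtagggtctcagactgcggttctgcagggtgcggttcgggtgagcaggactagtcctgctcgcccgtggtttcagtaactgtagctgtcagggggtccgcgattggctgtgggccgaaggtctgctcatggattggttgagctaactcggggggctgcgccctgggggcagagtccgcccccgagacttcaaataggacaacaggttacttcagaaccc
Eng (chr2:32646345-32646594, plus strand): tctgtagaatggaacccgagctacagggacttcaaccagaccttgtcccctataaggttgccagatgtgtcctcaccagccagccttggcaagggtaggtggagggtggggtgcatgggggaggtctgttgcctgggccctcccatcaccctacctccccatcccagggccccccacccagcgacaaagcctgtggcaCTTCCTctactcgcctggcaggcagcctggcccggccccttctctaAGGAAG
Abcb1a (chr5:8566841-8567090, plus strand): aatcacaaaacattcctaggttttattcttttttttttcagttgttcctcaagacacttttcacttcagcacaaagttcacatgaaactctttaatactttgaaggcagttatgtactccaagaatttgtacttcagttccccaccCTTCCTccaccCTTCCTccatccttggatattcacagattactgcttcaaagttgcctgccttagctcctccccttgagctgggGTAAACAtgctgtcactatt
In Flt1, AGGAAG lies 129 and 53 bases before the start, and in Eng 52 and 6 bases before it. Abcb1a has the core 104 and 93 bases and TGTTTAC 20 bases before the start, and no match lies in the Cldn5 window. AGGAAG was in 29.5% of all 32851 promoters of this length, CGGAAG in 13.6%, AGATAA in 9.99%, ACAATG in 10.7% and TGTTTAC in 3.17%. Among 55 genes whose lowest value in the 8 cells lay above the highest in the other 9, 33 matched a promoter, and 18 of these (54.5%) held AGGAAG, beside 31.5% of 6917 matched genes compared. For CGGAAG the shares were 12.1% and 30.2%, so either core together was in 63.6% and 51.9%. In the wider set of 563 genes called higher in the comparison below, 408 matched a promoter. Of these 148 (36.3%) held AGGAAG, and 52.2% held either core. A match of letters is a description and not a binding site.

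The comparison of all genes asks how the Flt1 cells differed from the other 9 cells sequenced with them. It covers 9197 protein-coding genes that reached 1 FPKM in 3 or more of the 17 cells, and a gene was called at a difference of at least 2 in mean log2(FPKM + 1), which is 4-fold. By this rule 563 genes were higher in the 8 cells (6.12% of those compared) and 1781 were lower (19.4%). Counts of called list members below are to be read beside these shares. A list member outside the 9197 genes could not be called. The filter counts the Flt1 cells too. A gene below 1 FPKM in all other 9 cells passed it through the Flt1 cells alone, and could be called higher but not lower. The reverse holds for a gene below 1 FPKM in all 8 Flt1 cells. The median difference over all genes compared was -0.73, so levels lay lower in the Flt1 cells across the table. In 55 genes (0.598%) the lowest of the 8 values was above the highest of the other 9, and in 21 (0.228%) the 8 cells lay wholly below. The counts depend on the pseudocount: 876 higher and 3513 lower with 0.1 in place of 1, and 230 and 306 with 10. The number of genes without overlap was 87 without cell 1, the cell with fewest genes found.

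The genes with the largest differences were mostly known endothelial genes. Besides Ly6c1, Egfl7 and Cldn5 they were Pglyrp1, a peptidoglycan recognition protein (difference 10.10), Ramp2, a coreceptor for adrenomedullin (9.62), Esam, an adhesion protein of endothelial junctions (9.28), and Eng, a coreceptor for TGF-beta ligands (8.81). The Ly6 genes Ly6a, Ly6c2 and Ly6e completed the 10, at 9.21, 9.19 and 8.93. Pglyrp1 stood at 3344, 1323, 2073, 1934, 586, 772, 1604 and 732 FPKM in the 8 cells and at most 0.979 in the other 9. Ramp2 stood at 54.9, 4948, 2278, 3008, 1273, 4723, 1897 and 2575 FPKM, with cell 1 far below the other 7 but still above the 29.1 FPKM that was the highest of the other cells.

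A stricter group of 14 genes (0.152%) was at FPKM of at least 1 in all 8 cells and below 1 in all other 9. The reverse group held 3 genes (0.0326%). Of the 14, the highest by their lowest value were Pglyrp1, Esam at 339 to 1764 FPKM, Eng at 207 to 1490.5, Ptprb, an endothelial tyrosine phosphatase, at 79.4 to 328, and Flt1. They were followed by Fn1, the matrix protein fibronectin, at 45.4 to 405 FPKM, and Cav1, the coat protein of caveolae, at 42.2 to 606. Abcb1a, the drug efflux pump P-glycoprotein, was at 35.01 to 519.96 FPKM, Gpr116, an adhesion receptor, at 13.3 to 183 and Nos3, endothelial nitric oxide synthase, at 13.2 to 249. Of these, Pglyrp1, Esam and Cav1 were above 1 FPKM in pool 1, at 8.64, 13.7 and 23.6 FPKM.

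The 10 genes with the largest deficits included enzymes and membrane proteins of neural cells. Cd63, a tetraspanin of late endosomes, stood at 0, 0, 0.0687, 492, 0.1803, 0.118, 0.967 and 0.328 FPKM against 225 to 1734 in the other 9 cells, a difference of -8.31. Only cell 6 had it at a level like that of the others. Ckb, brain creatine kinase, was at 0 to 81.8 FPKM against 143 to 4255 (-7.82), with no overlap. The others were Gpm6b and Ttyh1, membrane proteins of neural cells (-7.31 and -6.83), Plekhb1 (-6.54), Mt3, a brain metallothionein (-6.42), and Mid1ip1 (-6.40). Prdx6, a peroxiredoxin (-6.39), Cnp, a myelin enzyme (-6.36), and Phgdh, the first enzyme of serine synthesis (-6.33), completed the 10. Mt3 was at 348 FPKM in cell 8 and at most 1.44 in the other 7.

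Among the most abundant genes, translation genes stood beside endothelial ones. By median FPKM over the 8 cells the order was Eef1a1 (12556), a translation elongation factor, Bsg (10434), the surface protein basigin, Rps12 (7835), Ly6c1 (5908), Tpt1 (5229) and Sparc (4735), a matrix-binding protein. Rpl13a (4352), Ly6a (3721), Rpl23a (3677) and Pltp (3475), the phospholipid transfer protein, followed. Bsg stood at 6626, 13455, 12562, 4643, 9940.3, 11358, 5770.1 and 10927 FPKM against 52.4 to 1679, with no overlap and a difference of 4.85. Pltp stood at 1341 to 5129 FPKM against a median of 2.01 in the other 9, of which 1 reached 1544. Ribosomal genes and Eef1a1 have processed pseudogenes, so their FPKM is uncertain.

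Genes of endothelial identity were found in every Flt1 cell, in 13 (cell 1) to 20 of 23. Of the list, 22 passed the filter on low values, 20 of them were called higher, none was lower, and 10 did not overlap. In the other 9 cells 17 of the 23 were below 1 FPKM throughout, so those could not be called lower. The median difference over all 23 was 5.53, beside -0.73 for all genes. The 4 most abundant were Ramp2, Esam, Eng and Podxl, a sialomucin of the luminal surface, at 88.7 to 373 FPKM. Eng stood at 1272, 325, 404, 1222, 596, 1490.5, 207 and 309.9 FPKM, and the other 9 cells reached 0.921. The angiopoietin receptor Tek was at 5.54, 109.6, 99.6, 101, 25.8, 188, 97.97 and 165 FPKM and at most 0.0196 in the other cells. Cdh5, VE-cadherin of endothelial adherens junctions, was uneven at 0, 148, 52.6, 3.94, 0.446, 124, 51.7 and 8.97 FPKM, listed at 0 in cell 1 and under 1 in cell 7.

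The transcription factors of the list were found in part of the cells. Erg, an ETS factor, stood at 0, 39.2, 28.3, 17.6, 44.2, 52.1, 7.19 and 86.1 FPKM and was missing only in cell 1. Sox17 was at 114, 23.7, 69.2, 0, 34.4, 2.07, 0.0735 and 0 FPKM and Sox7 at 173, 0.267, 0.0616, 63.1, 0, 52.4, 39.4 and 465, so that cells 1 and 8 had both, cells 2, 3 and 7 had Sox17 without Sox7, and cells 6, 16 and 17 had Sox7 without Sox17. Tal1 was found in cell 16 alone, at 24.7 FPKM. Sox18 and Calcrl, a receptor subunit that pairs with Ramp2, were found in 3 and 2 of the 8 cells. Calcrl reached 7.75 FPKM, while its partner Ramp2 reached 4948.

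Of 17 tight and adherens junction genes, 6 were found in all 8 cells, 8 in part of them and 3 in none. Each Flt1 cell had 8 to 12 of the 17, and each of the other 9 cells had 2 to 13. Of the list, 16 passed the filter, 7 were higher, 2 were lower and 3 did not overlap, with a list median of 1.40. The most abundant were Cldn5, Esam, Ctnnb1 and Lsr. Lsr, a protein of tricellular junctions, stood at 86.9, 524, 820.1, 55.3, 239, 451, 349 and 299 FPKM against a highest value of 20.9 in the others. Ctnnb1, beta-catenin, was at 146 to 702 FPKM in the 8 cells and 43.9 to 315 in the other 9, a difference of 1.74 that was not called. Ocln, occludin, stood at 159.8, 8.52, 9.91, 92.9, 235, 26.5, 78.1 and 127 FPKM, and the adaptor Tjp1 at 0.988 to 65.4. Cldn3, Cldn12 and Jam3 were below 1 FPKM in all 8 cells. Cldn3 and Jam3 were the pair called lower, at up to 458 and 321 FPKM in the other cells.

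Barrier transporters were found in every Flt1 cell. In each cell 16 (cell 8) to 22 of 23 measured genes were found, and in the other 9 cells 5 to 15, the most in cell 5. Of the 23, 17 were higher, none was lower and 6 did not overlap. Of all genes compared 6.12% were higher, 19.4% were lower and 0.598% lay wholly above the other cells. The list median was 3.96, and the summed level was 2878 to 7794 FPKM in the 8 cells and 97.97 to 1130.2 in the other 9. Slc2a1, the glucose transporter, stood at 1694, 806, 2152, 582, 584, 3053, 1333 and 1276 FPKM. Slco1c1, which carries thyroid hormone, stood at 566, 489, 602, 533, 963, 473, 339 and 967 FPKM and overlapped no other cell, of which the highest was at 263. Slco1a4, an organic anion carrier, was at 136 to 818 FPKM against at most 18.7. Mfsd2a, the carrier of docosahexaenoic acid in lysolipid form, was at 110.4 to 856 FPKM, with its lowest level in cell 16.

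Efflux pumps were in all 8 cells. Abcb1a stood at 519.96, 123, 259, 35.01, 51.9, 248, 138 and 438 FPKM and at no more than 0.0744 in the other 9 cells. Abcg2, the breast cancer resistance protein, stood at 759, 176, 20.8, 35.2, 814, 1141, 580.2 and 527 FPKM, lowest in cells 3 and 6. Abcb1b, a close copy of Abcb1a, was read at 1.27% to 35.0% of the Abcb1a level, and how reads were split between the copies is not known. Of genes that were uneven, Slc19a3, a thiamine transporter, was found in cells 2 and 17 at 221 and 56.9 FPKM.

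Caveolar genes were present and the fenestral gene was not. Plvap, the diaphragm protein of fenestrated and leaky vessels, was below 1 FPKM in all 8 cells. Cav1 stood at 209, 69.01, 356, 42.2, 606, 83.3, 239.6 and 186 FPKM and at most 0.2500 in the other cells. Ptrf, which encodes cavin-1, was at 7.59 to 131 FPKM. Ehd2, an ATPase at the caveolar neck, was listed at 0 in cell 6 and Sdpr, which encodes cavin-2, in cell 1, and they reached 86.2 and 268 FPKM in the rest. Of the 7 genes of the list 5 were higher and none lower, with a median of 3.83.

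In VEGF, angiopoietin and apelin signalling the 7 genes called higher were 6 receptors or coreceptors, Flt1 included, and the ligand Vegfc. Of 15 genes, 10 passed the filter and 1 was lower, with a median of 2.06 that was 1.22 without cell 1. Below 1 FPKM in all other 9 cells were 7 of the 15. Kdr, the main signalling receptor for VEGF-A, stood at 149.7, 112, 154, 19.9, 176, 237, 45.4 and 112 FPKM and overlapped no other cell. Tie1, the partner of Tek, stood at 0.301, 171, 121, 109, 26.2, 151, 2.76 and 54.01 FPKM, under 1 in cell 1. The coreceptor Nrp1 was under 0.1 in cells 1 and 7 and reached 149 FPKM in cell 6. Of ligands, Vegfa, Vegfb, Pgf, Angpt1, Angpt2 and Apln were below 1 FPKM in all 8 cells, and Apln was the gene called lower. Vegfc, a ligand for Flt4, was the exception, in cells 2, 3 and 16 at 206, 112 and 119 FPKM. Aplnr, the apelin receptor, was in cells 1 and 16 alone, at 1903 and 161 FPKM. Flt4 was found in cells 2, 3, 8 and 17 at 1.52, 31.3, 19.8 and 21.7 FPKM.

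Genes of sprouting tip cells were few. Of 9 genes, 6 (Esm1, Kcne3, Cxcr4, Apln, Angpt2 and Plaur) were below 1 FPKM in all 8 cells. Pdgfb, the ligand that recruits pericytes, stood at 0.07901, 52.97, 368, 365, 283, 539, 48.1 and 171 FPKM, so it was absent from cell 1 alone. Dll4, a Notch ligand, was in cells 2, 3, 7 and 17, and Adm, adrenomedullin, in cell 16 at 123 FPKM.

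Notch genes were patchy. Of 12 genes, 9 passed the filter, 2 were higher and none was lower, beside 6.12% and 19.4% of all genes compared. The list median was 0.66, and it was 0.40 without cell 1 and 0.41 without cell 16. The most abundant by mean log2 level were Hey1, a Notch target, at 0, 10.1, 28.8, 0.561, 5.38, 357, 0 and 94.96 FPKM, Notch1 at 0 to 28.1, Jag2 at 0 to 52.1 and Hes1, found in cells 6, 16 and 17 at 226, 71.97 and 9.47. Notch4, an endothelial Notch receptor, was in cells 1, 3 and 16 at 41.5, 3.80 and 37.4 FPKM. Nrarp was below 1 in all 8 cells. Cell 3 had 9 of the 12 genes, and cells 1 and 6 had 2 each.

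Markers of vessel zones divided the 8 cells. Cells 2 and 3 held most of the arterial genes, with 10 and 9 of 14 found, against 0 to 5 in the other 6. Gkn3, a gastrokine of arterial endothelium, was at 2288 and 701 FPKM in these cells and at most 0.2505 in the rest. Mgp, an inhibitor of calcification, was at 1858 and 1358 FPKM in cells 2 and 3 and under 1 in the other 6. Bmx, a kinase of arterial endothelium, was at 14.98 and 31.3 FPKM and Sema3g, a semaphorin, at 24.2 and 124, and both were under 0.1 in the rest. Dll4 and the Notch target Hey1 were in these cells too, but also in cells 7 and 17, and Hey1 was highest in cell 8 at 357 FPKM. Gja5, Fbln5 and Cytl1 were below 1 in all 8 cells.

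The venous list was fullest in cells 16 and 1, with 10 and 7 of 12 genes, against 1 to 5 in the other 6. Slc38a5, a glutamine carrier, stood at 1259, 0.764, 41.1, 8.04, 107, 0.752, 1261 and 1.23 FPKM, so that cells 1 and 16 were nearly equal and the next was cell 7. Icam1, a leukocyte adhesion protein, stood at 2769, 2.33, 1.06, 32.1, 0, 0, 715 and 0.486 FPKM, again highest in cells 1 and 16. Nr2f2, the venous transcription factor COUP-TFII, was at 77.2 and 21.7 FPKM in these cells and at most 2.49 in the others. Outside the list, Aplnr and Ptgis, prostacyclin synthase, were likewise highest in these cells, Ptgis at 632 and 277 FPKM. Lcn2, lipocalin-2, was found in cell 16 alone, at 355 FPKM, as were the chemokine-binding protein Darc at 142 and E-selectin, Sele, at 8.63.

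Other members of the venous list did not keep to these cells. Vwf, von Willebrand factor, stood at 88.9, 0.336, 851, 496, 0.127, 141, 842 and 1.22 FPKM, high in cells 3, 6 and 8 as well as 1 and 16. Ephb4, the venous ephrin receptor, stood at 81.9, 1.32, 31.9, 0.0906, 60.9, 0.03999, 39.9 and 0.233 FPKM. Selp and Lrg1 were below 1 in all 8 cells. For the arterial list the median difference was 1.29 (0.67 without cell 3 and 0.86 without cell 2), with 3 of 14 genes higher. For the venous list it was 0.98 (0.00274 without cell 16), with 4 of 12 higher. Both medians thus depend on 1 or 2 cells. In all other 9 cells 9 of the 14 arterial and 8 of the 12 venous genes were below 1 FPKM, so those could not be called lower.

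Capillary markers were spread over all 8 cells, with 6 to 9 of 9 measured genes found in each. In the other 9 cells 1 to 6 were found, and cells 5, 11 and 12 equalled cell 8 with 6. The list's mean log2(FPKM + 1) was 5.33 to 8.04 in the Flt1 cells and 0.402 to 3.86 in the others. Of the 9 genes, 7 were higher, with a median of 5.24. Slco1c1 and Mfsd2a were in every Flt1 cell. Cxcl12, a chemokine, stood at 0.653, 295, 237, 788, 1129.99, 2811, 0.196 and 1493 FPKM, and Spock2, a testican of the matrix, at 21.8, 92.2, 182, 102, 274, 334, 8.28 and 280.4. Cells 1 and 16 were the lowest of the 8 in both. Car4, a surface carbonic anhydrase, did not follow, at 4709, 4.69, 377, 1803, 0, 0, 223 and 1796 FPKM, highest in cell 1 and listed at 0 in cells 7 and 8. Rgcc, a cell cycle regulator, was under 1 in cells 1, 8 and 16, and Tfrc, the transferrin receptor, was listed at 0 in cell 8.

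Lymphatic genes were not found. Prox1, the lymphatic master regulator, Lyve1, Pdpn, Ccl21a and Reln were below 1 FPKM in all 8 cells, and the list's remaining gene, Flt4, is given above.

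The Wnt and beta-catenin pathway sets barrier properties in brain vessels, and 7 of its 15 genes were higher and none lower, with a median of 1.92. Foxf2, a forkhead factor, stood at 171, 76.1, 58.6, 54.4, 44.4, 201, 0.0887 and 506 FPKM. Lef1, a partner of beta-catenin in the nucleus, stood at 111, 2.34, 93.6, 237, 259, 195, 0.791 and 1.13 FPKM, high in 5 cells and at most 2.34 in cells 2, 16 and 17. Nkd1, a Wnt feedback inhibitor, was at 1.27 to 125 FPKM and the receptor Fzd6 at 0.3505 to 121, under 1 in cell 1 alone. Apcdd1, another feedback inhibitor, was at 2.31 to 107 FPKM against at most 1.35 in the other cells. Of receptors, Gpr124, needed for Wnt7 signals, was found in cells 2, 6, 7 and 17 at 45.2, 52.2, 4.68 and 5.999 FPKM, and Fzd4 in cell 16 alone at 20.6.

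In the TGF-beta and BMP pathway 10 of 15 genes passed the filter, 4 were higher and 1 was lower, beside 6.12% and 19.4% of all genes. The list median of 0.60 moved to 0.23 without cell 16 and to 0.31 without cell 17. The most abundant were Eng and the targets Id1 and Id3, followed by Acvrl1, the endothelial type I receptor also called ALK1. Id1 stood at 0.392, 2025, 2566, 598, 19.5, 24.7, 252 and 994 FPKM and Acvrl1 at 0.455, 146, 933, 0.0485, 592, 336, 123 and 33.8. The other cells reached 0.997 FPKM for Acvrl1. Id2 was the gene called lower, found in cells 2, 3 and 17. Bmpr1a, Bmp6 and Bmper were below 1 FPKM in all 8 cells.

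Of 9 genes of sphingosine-1-phosphate signalling, S1pr1, the receptor that stabilises vessel walls, was called higher at 0, 130.4, 14.6, 42.7, 13.98, 751, 48.7 and 67.01 FPKM, though 1 of the other cells reached 912. Spns2, the exporter of the lipid, stood highest in cell 17 at 202 FPKM, and the enzymes Sphk2 and Sgpl1 were at up to 82.8 and 19.4. S1pr2, S1pr3 and S1pr5 were below 1 in all 8 cells, and the list median of 0.27 ran from -0.08 without cell 17 to 0.72 without cell 13.

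Of 20 genes of the basement membrane and its integrins, 9 were higher and 1 lower, with a median of 1.84. Sparc stood at 1536, 5029.9, 4529, 3322, 4942, 5094, 2447 and 5481 FPKM and overlapped no other cell. Fn1 stood at 356, 275, 191, 204, 277, 325, 405 and 45.4 FPKM, lowest in cell 17, while the other 9 reached 0.113. Sparcl1, a relative of Sparc, was at 47.7 to 677 FPKM, but the other cells spanned 0.0385 to 2416. Agrn, the heparan sulphate proteoglycan agrin, stood at 0.0766, 283, 236, 208, 132, 315, 85.2 and 185 FPKM, and the collagen IV chain Col4a2 at 0.378, 162, 128, 74.03, 129, 220.3, 180.1 and 327. Both were under 1 in cell 1 alone. Lamb1, Itgav and Mcam were below 1 in all 8.

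Class I antigen genes were in all 8 cells and class II genes in none. B2m, the light chain of class I molecules, stood at 520.3, 2084, 1733, 203, 923, 1273, 2209 and 822 FPKM, and the heavy chain genes H2-D1 and H2-K1 at 32.2 to 682 and 27.6 to 1092. The class II genes Cd74, H2-Aa, H2-Ab1 and H2-Eb1 were below 1 FPKM in all 8. Ifitm3, an antiviral membrane protein, stood at 0, 1911, 1208, 614, 874, 911, 953 and 806 FPKM, listed at 0 in cell 1. Of 21 genes of the list, 10 were higher and none lower, with a median of 1.83, 1.11 without cell 2, 1.20 without cell 6 and 0.69 without cells 3 and 6. Each Flt1 cell had 4 to 17 of the 21, and the other 9 cells had 2 to 13. The list's mean log2(FPKM + 1) was 1.61 to 6.29 in the Flt1 cells and 0.299 to 3.53 in the others. Cells 4 and 12, at 3.53 and 3.50, lay above Flt1 cells 1, 7, 8 and 16.

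Interferon-response genes were highest in cells 2, 3 and 6. Irf7, an interferon regulatory factor, stood at 0.779, 499, 407, 138, 0, 0, 9.42 and 0 FPKM. Isg15, a ubiquitin-like protein, stood at 302, 1745, 442, 942, 0, 0, 0 and 107 FPKM, and so was also in cells 1 and 17. Ifit3 was at 428, 64.6 and 549 FPKM in cells 2, 3 and 6, and Ifit1 at 575, 16.3 and 56.8. In the other 5 cells Ifit1 and Ifit3 were both under 0.1. These 3 cells carried 13 to 17 of the 21 genes of the whole list, and cell 17 carried 12. Of the cells without Flt1, cell 12 carried 13 and cell 4 carried 10.

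Ly6 genes encode small surface antigens, and 5 of them were abundant in every Flt1 cell. Of the 8 genes, Ly6c1, Ly6a, Ly6e, Ly6c2 and Ly6i were found in all 8 cells and called higher, and Ly6h, Ly6d and Ly6f were below 1 FPKM in all 8. Ly6a, the antigen Sca-1, stood at 923, 9506, 5652, 4975, 3634, 1067, 3809 and 2753 FPKM against 0 to 458, and Ly6e at 894 to 2713 against 0.215 to 238. Ly6c2 was read at 21.0% to 25.4% of the Ly6c1 level in every cell, with a median of 22.3%. This ratio varied far less than the levels, which spanned 912 to 15779.5 FPKM for Ly6c1 and 229.8 to 3386 for Ly6c2. It was 28.2% in pool 2 and 45.2% in pool 3.

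Ly6c1 and Ly6c2 on chromosome 15 are copies with near-identical coding sequences, which bears on how far their levels can be told apart. Their coding sequences are 393 bases each and differ at 9 bases (97.7% identical, GENCODE M21 on GRCm38). Their whole transcripts differ more, at 42 of 844 aligned positions with gaps included (95% identical). The first 150 bases of each are shown, 5′ to 3′, with capitals at the 6 differing bases of this stretch. The coding region of Ly6c1 spans chr15:75045405-75048511 and that of Ly6c2 chr15:75108546-75111667, both on the minus strand.
Ly6c1: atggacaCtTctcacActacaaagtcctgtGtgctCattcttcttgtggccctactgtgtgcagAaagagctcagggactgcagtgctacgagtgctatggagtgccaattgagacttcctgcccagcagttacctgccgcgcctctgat
Ly6c2: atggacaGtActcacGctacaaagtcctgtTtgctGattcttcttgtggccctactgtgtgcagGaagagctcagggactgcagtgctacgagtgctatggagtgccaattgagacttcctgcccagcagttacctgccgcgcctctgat
Beyond this stretch lie the other 3 differing bases. Ly6i was read at 1.21% to 10.4% of Ly6a, a pair whose coding sequences are 86.3% identical. Their whole transcripts are 60.4% identical, gaps included. How the authors' counting treated reads that fit both copies is not given in the sources used here.

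**Figure D3:**
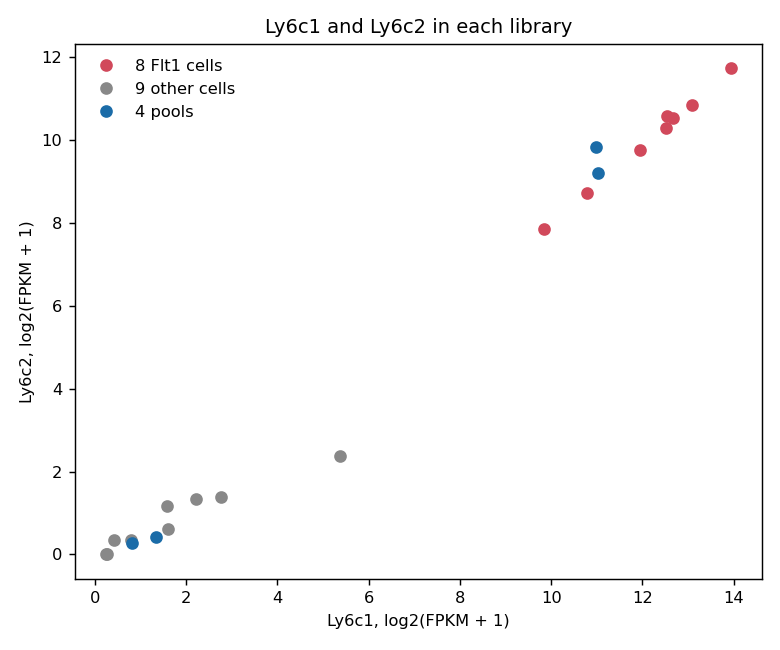
Ly6c1 on the horizontal and Ly6c2 on the vertical axis, both as log2(FPKM + 1), 1 point per library. The 8 Flt1 cells lie on a line at a ratio of 21.0% to 25.4%, above all of the 9 other cells; pools 2 and 3 lie in the upper part and pools 1 and 4 with the other cells.

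Genes of haemostasis and vessel tone were mixed. Of 14 genes, 8 passed the filter, 5 were higher and 1 was lower, beside 6.12% and 19.4% of all genes. The list median was 0.97 (0.56 without cell 2), and the gene called lower, Ednrb, was below 1 in all 8 cells. Nos3 stood at 166, 52.04, 29.98, 45.5, 36.6, 249, 13.2 and 88.5 FPKM and Thbd, thrombomodulin, at 0.0203, 26.4, 71.4, 6.16, 9.39, 125, 24.9 and 26.8. Plat, tissue plasminogen activator, was high in cells 8, 16 and 17 at 215, 304 and 107 FPKM. Edn1, endothelin-1, was found in cells 2, 7, 8 and 17 at 47.3, 6.25, 2.72 and 60.99 FPKM. Plau, F8 and Ptgs1 were below 1 in all 8 as well. Among leukocyte adhesion genes 3 of 8 were higher, with a median of 1.01, 0.64 without cell 4 and 0.51 without cells 3 and 6. Icam2, a counter-receptor for leukocyte integrins, stood at 1454, 922, 146, 11.3, 0.619, 409, 69.03 and 253 FPKM. Jam2, a junction protein, was listed at 0 in cell 1 and reached 399 FPKM in the others, while cells without Flt1 reached 453.

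Of 17 immediate early and flow-responsive genes, 12 to 16 were found in each Flt1 cell except cell 7, which had 7. Cells without Flt1 shared them in part, with 3 to 16 found, the most in cell 12. The list's mean log2(FPKM + 1) was 2.82 to 7.67 in the Flt1 cells and 0.818 to 5.52 in the others. Of the 17 genes, 10 were higher and none lower, with a median of 2.52. Klf2, a factor induced by blood flow, stood at 268, 237, 416, 434, 0.0761, 1144, 268 and 386 FPKM against 0 to 14.4 in the other 9 cells. Dusp1, a phosphatase of MAP kinases, stood at 119, 467, 443, 613, 0.06997, 311, 150.5 and 2571 FPKM and Jun, a subunit of AP-1, at 447, 218, 293, 295, 0.03801, 254, 124 and 299. In cell 7 these genes and Fos, at 0.0656 FPKM, were all under 0.1. Klf4, a relative of Klf2, did not follow and stood at 91.2 FPKM in cell 7, and Atf3, a stress-induced factor, at 239.

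Fos, another AP-1 subunit, was high in both groups, at 0.0656 to 3708 FPKM in the 8 cells and 1.23 to 1085 in the other 9, a difference of 0.35. Ctgf, a secreted target of YAP, was below 1 in all 8 cells. The related Cyr61 stood at 0, 77.2, 129, 0.264, 186, 12.4, 86.2 and 103 FPKM, under 1 in cells 1 and 6.

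Genes of the dividing cell were found in few of the cells, Pcna apart. Of 14 cell cycle genes only 4 passed the filter on low values, and none of these was called. Of the 14, 8 were below 1 FPKM in all 8 cells, among them Cdk1, Ccnb1 and Birc5. Mki67, the proliferation antigen, and Ccna2, cyclin A2, were found in cell 8 alone, at 22.02 and 22.01 FPKM. Mcm6 and Mcm3, subunits of the replicative helicase, were found in cell 3 alone, at 109 and 53.4 FPKM. Pcna, the sliding clamp of DNA replication and repair, was in 7 of the 8 cells at 0 to 358 FPKM and in 7 of the other 9.

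Among cyclin D genes and inhibitors, Cdkn1a and Cdkn1c were called higher. Cdkn1a, the inhibitor p21, stood at 0, 69.1, 0.614, 12, 6.09, 759, 0 and 279.9 FPKM, highest in cells 8 and 17. Cdkn1c, the inhibitor p57, was in cells 2, 3 and 17 at 329, 162 and 71.3 FPKM and under 0.1 in the rest. Ccnd3, cyclin D3, stood at 1.26, 812, 550.4, 128, 0.157, 80.1, 206 and 0.995 FPKM, while Ccnd1, cyclin D1, was found in 3 cells and Ccnd2, cyclin D2, in 2. Cdkn2c was below 1 in all 8.

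Of 24 vessel-derived signals known to act on neural stem and progenitor cells, 15 passed the filter, 7 were higher and 2 were lower. The shares of all genes were 6.12% and 19.4%. Of the 24, 11 were below 1 FPKM in all 8 cells. The list median was 0.00352 and ran from 0 to 0.00403 with any 1 cell left out. The signals found most were Igfbp7, a secreted IGF-binding protein, at 0.07803, 1346, 1512, 862, 594, 544, 252 and 529 FPKM, and Cxcl12 and Pdgfb, given above. Tgfb2, a TGF-beta ligand, stood at 0.0158, 82.97, 9.97, 82.6, 10.3, 68.3, 4.66 and 70.7 FPKM. All 4 were below 1 in cell 1. Jag1, a Notch ligand, was in cells 1, 2, 3, 16 and 17 at 35.4, 2.35, 9.33, 16.1 and 4.54 FPKM, and Efnb2, ephrin-B2, in cells 7 and 17 at 15.3 and 5.92.

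The signals not found in any of the 8 cells included Ntf3, Bdnf, Btc, Serpinf1, Bmp2, Bmp6, Igf1, Lif and Tgfb1. Serpinf1 encodes PEDF, Ntf3 neurotrophin-3 and Btc betacellulin. Igf2 was at 33.5 FPKM in cell 17 and at most 5.95 in the other 7, while 1 cell without Flt1 reached 1246. Ptgds, prostaglandin D synthase, was called lower and yet stood at 129.7 FPKM in cell 1.

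Surface antigens used to isolate stem cells were found on the transcript level in Flt1 cells. Prom1, the antigen CD133, stood at 279.8, 167, 121, 72.4, 534, 274, 252 and 263 FPKM in the 8 cells and at 0 to 86.4 in the other 9, a difference of 5.88. Itga6, the laminin receptor subunit CD49f, stood at 0.0284, 143, 7.04, 713, 172, 52.8, 299.8 and 87.6 FPKM, under 1 in cell 1 alone. Nes, the intermediate filament nestin, stood at 5.35, 29.4, 25.05, 55.3, 0.0109, 0.0285, 35.6 and 15.9 FPKM, so that it was in 6 of the 8 cells and in 3 of the other 9. Itgb1, the beta subunit that pairs with Itga6, was in all 8 cells at 5.60 to 228 FPKM but was not called.

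The stem cell genes proper were not found in these cells. Gfap, Sox2, Egfr, Hes5 and Thbs4 were below 1 FPKM in all 8 cells, and Gfap and Sox2 were called lower. Gfap reached 543 FPKM and Sox2 116 in the other 9 cells. Cd24a, an antigen of neuroblasts and ependymal cells, was at 470.2 FPKM in cell 2 and under 1 in the other 7. Over the 12 genes of this list 3 were higher and 3 lower, with a median of -0.51 that was 0 without cell 11, -0.27 without cell 14 and -0.31 without cell 12.

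Housekeeping genes give the scale of scatter in these libraries. Of 12, none was higher and 4 were lower, among them Tbp, Sdha and Pgk1, beside 6.12% and 19.4% of all genes. The list median was -0.93 beside the -0.73 of all genes. This median was -0.41 without cell 1, -0.44 without cell 11 and -1.42 without cell 6. Ppia, cyclophilin A, stood at 1342 to 3672 FPKM in the 8 cells and Actb, beta-actin, at 352 to 3298. Pgk1, a glycolytic enzyme, stood at 0.336, 0.0998, 149.8, 11.6, 3.22, 478, 215 and 4.03 FPKM, under 1 in cells 1 and 2. A gene used by every cell was thus missing from single libraries, which bears on every absence named here.

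Markers of other cell types were looked for in each of the 8 cells. Mural cells, which wrap vessels and often stay attached to endothelium, left few traces: 10 of 14 pericyte and smooth muscle genes were below 1 FPKM in all 8 cells, among them Pdgfrb, Cspg4, Vtn, Kcnj8 and Myh11. The pericyte gene Rgs5 was at 2.48 FPKM in cell 2, Abcc9 at 3.83 in cell 1 and Acta2, smooth muscle actin, at 2.70 to 6.46 FPKM in all 8. Summed over the list, these markers came to 2.95 to 9.47 FPKM in the 8 cells and 2.08 to 1045 in the other 9. Of 7 fibroblast genes, all but Igf2 were below 1 in all 8, including Dcn, Col1a1 and Pdgfra.

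Cell 3 carried a microglial or macrophage set besides its endothelial genes. It had 10 of 14 of these markers, cell 2 had 4 and the other 6 cells 0 to 3. Tyrobp, an adaptor of myeloid receptors, was at 772 FPKM in cell 3 and listed at 0 in the other 7. Ctss, cathepsin S, was at 473 FPKM, Aif1 at 247, C1qc, a complement subunit, at 286 and Csf1r, the receptor for CSF1, at 83.9. Cx3cr1, P2ry12 and Trem2 were below 1 in all 8. The list's summed level was 0.484 to 2591 FPKM in the 8 cells and 0.0159 to 158 in the other 9, and its median difference of 0.64 was -0.17 without cell 3. Cell 3 also held Pf4, a chemokine of platelets and macrophages, at 113 FPKM.

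Cell 6 held genes of several other types at lower levels. It had 6 of 10 oligodendrocyte genes, with Mbp, myelin basic protein, at 175 FPKM and Mobp at 67.2. It also had the haemoglobin genes Hba-a1 and Hba-a2, copies of each other, at 55.8 and 52.5 FPKM. Ttr, transthyretin of the choroid plexus, was at 219, 249 and 79.1 FPKM in cells 2, 6 and 17, and Kcnj13, a channel of the same epithelium, at 445 in cell 17. The neuroblast gene Stmn2 was at 203 and 248 FPKM in cells 2 and 3, while Dcx was below 1 in all 8. The part of such RNA in the levels of these cells was not tested.

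Astrocyte and oligodendrocyte genes were called lower more often than the 19.4% of all genes, and part of the other 9 cells carried these differences. Of 10 astrocyte genes 7 were lower and none higher, with a median of -2.63, and of 10 oligodendrocyte genes 8 were lower, with a median of -3.08. Oligodendrocyte genes had a mean log2(FPKM + 1) of 8.42 to 9.89 in cells 4, 12 and 13, but of 0.894 to 2.26 in the other 6 cells without Flt1, within the 0.392 to 2.95 of the Flt1 cells. The astrocyte mean was 0.109 to 0.628 in the Flt1 cells, 0.715 and 0.938 in cells 4 and 5, and 1.42 to 7.82 in the remaining 7. Gfap, Aqp4, Aldoc, S100b, Gjb6 and Aldh1l1 were below 1 FPKM in all 8 cells. Gja1, the gap junction protein connexin 43, was found in 5 cells, at 0.0246, 17.6, 3.25, 7.85, 50.4, 0, 0.462 and 10.7 FPKM. Slc1a3 and Slc1a2, glutamate transporters, and Fgfr3 were found in 1 cell each, at 9.67, 3.001 and 2.61 FPKM. Mal, a lipid raft protein listed with the myelin genes, was in all 8 cells at 525, 322, 170.02, 8.04, 4.03, 165, 141 and 94.6 FPKM, a difference of 0.86. Of 10 ependymal genes 9 were below 1 in all 8, including Foxj1, and 3 were called lower, against 19.4% of all genes, with a median of -1.86. Their mean was at most 0.442 in the Flt1 cells, 6.21 and 6.11 in cells 9 and 15 and 0.00926 to 2.94 in the other 7. Of 7 neuronal genes only 1 passed the filter, and it was not called. Of the 7, 6 were below 1 in all 8 cells.

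**Figure D4:**
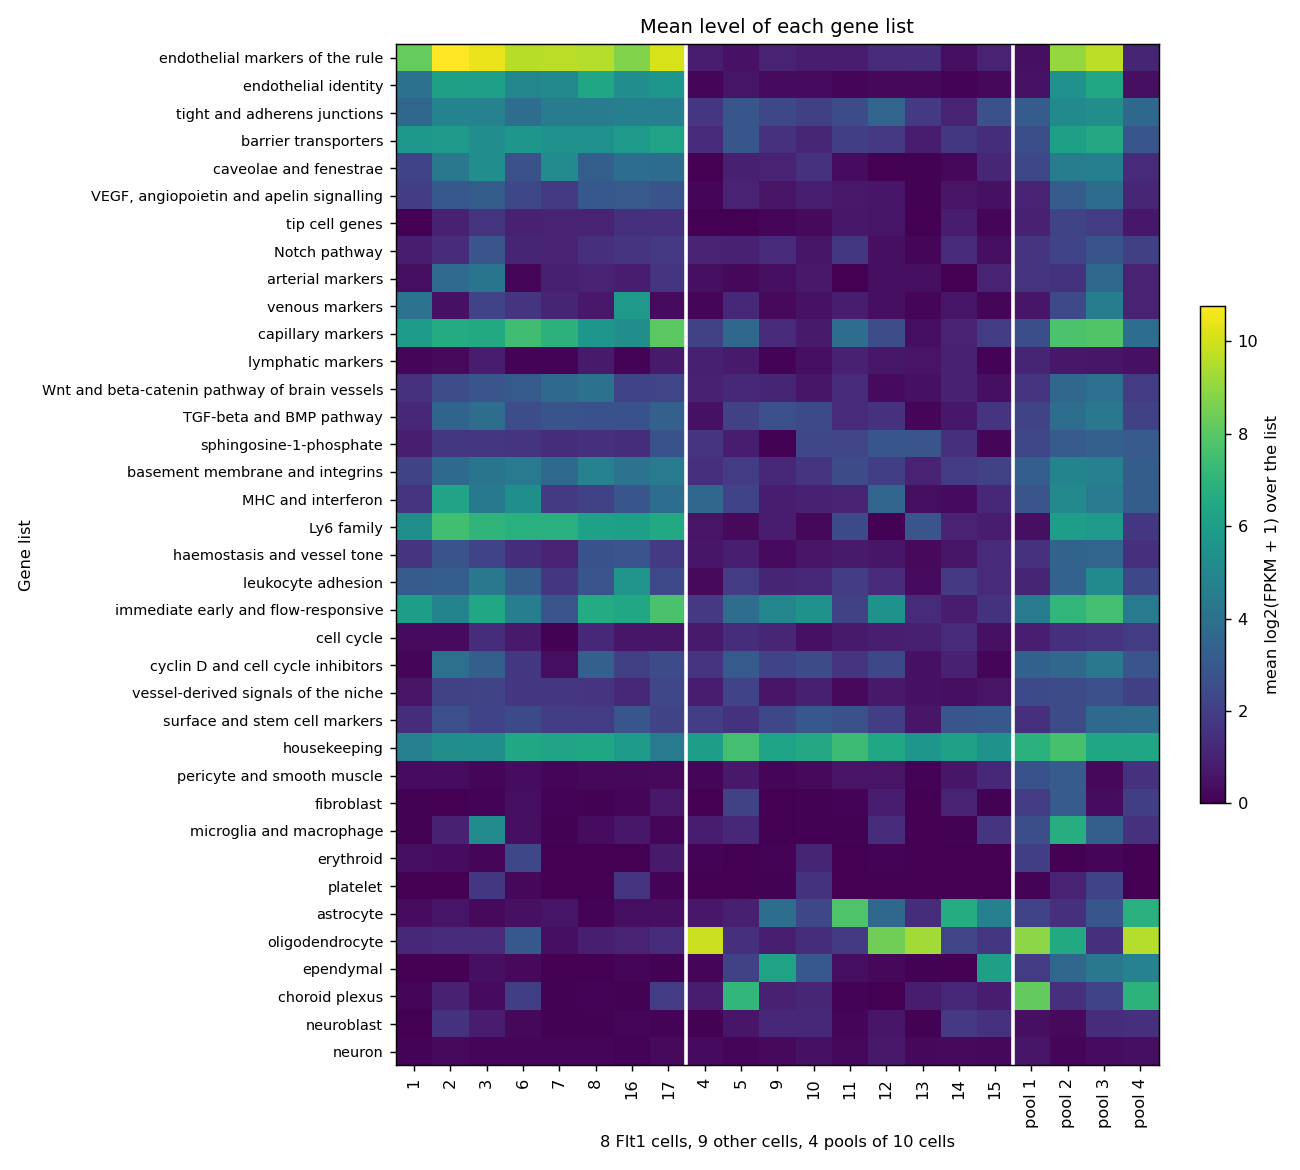
Mean log2(FPKM + 1) over each gene list (rows) in the 8 Flt1 cells, the 9 other cells and the 4 pools of 10 cells (columns), as colour. Endothelial identity, barrier transporters, Ly6 genes and capillary markers are bright in the 8 cells, in pool 2 and in pool 3; cell 3 stands out at 5.19 for microglia and macrophage and cell 6 at 2.95 for oligodendrocyte genes.

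Leaving out cells 3 and 6, which hold these markers, gave 530 genes higher, 2013 lower and 69 without overlap, beside 563, 1781 and 55 with all 8 cells. Without cell 3 alone the counts were 531 and 1925. With both cells left out, none of the medians of the identity, junction, transporter, caveolar or capillary genes changed sign. The remaining Flt1 cells hold these genes too, so a change of sign could hardly occur. The part of RNA from other cell types in these medians was not tested.

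The 8 cells resembled each other more than they did the other cells. Across the 9197 genes compared, Spearman's rho between FPKM values was 0.348 to 0.488 within the 28 pairs of Flt1 cells, with a median of 0.404. Over the 72 pairs of a Flt1 cell and another cell it was 0.134 to 0.324, with a median of 0.220, and over the 36 pairs of other cells 0.180 to 0.506. Cells 7 and 8 were the most alike of the 28 pairs, and cells 7 and 16 the least. Cells 2 and 3 reached 0.475, which was the highest value for either of them, and cell 16 was closest to cell 17 at 0.469. Cells 1 and 16, the fullest in venous genes, were at 0.372, the lowest value for cell 1. These values are across genes, which are not independent, and the libraries share depth and dropout of low genes.

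The genes that varied most among the 8 cells were mainly genes of general function that were missing in part of the libraries. By SD of log2(FPKM + 1) the 10 were Psmc3, Snrpe, Phb2, Ndufb8, Mrpl54, Nudc, Cope, Stx4a, Car4 and Isg15. Psmc3 stood at 966, 1009.8, 905, 1.41, 0, 426, 1.24 and 0 FPKM, an SD of 4.85 (n = 8). Nudc, a chaperone of dynein, stood at 0, 1434, 2579.8, 2279, 0.112, 19.4, 11.9 and 0.346 FPKM, an SD of 5.06. Of the 10 only Car4, at an SD of 5.02, and Isg15, at 4.75, were called higher than in the other cells. For comparison, the SD was 0.53 for Cldn5, 0.57 for Bsg, 0.51 for Slco1c1 and 0.67 for Ptprb.

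Pools 1 and 2 allow the genes to be looked up in libraries that show no fixed share of these cells' private genes. They still held 21 and 32 of the 56 private genes of the pool 3 cells. Pool 1 also held every private gene of cells 4, 5 and 13, which are among the comparison cells. The independence of pools 1 and 2 was not tested further. In a pool, fewer endothelial cells and less RNA per cell cannot be told apart. Pool 2 had Flt1 at 211 FPKM, Cldn5 at 1305 and Ly6c1 at 2076, and pool 1 had them at 0.361, 0.301 and 0.754. All 55 genes without overlap were found in pool 2 and 28 of them in pool 1. Of the 55, 48 (87.3%) were at least 4-fold higher in pool 2 than in pool 1, beside 1280 of all 9197 genes (13.9%). Of the 563 genes higher in the Flt1 cells 320 (56.8%) passed that fold, and of the 1781 lower genes 138 (7.75%).

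Receptors and barrier transporters were among these genes. Pool 2 had Abcb1a at 46.4 FPKM, Slco1c1 at 432, Tek at 73.1 and Kdr at 82.5, against 0.0242, 88.9, 0.0153 and 3.40 in pool 1. Zonation genes were mixed. Capillary genes had a mean log2(FPKM + 1) of 7.74 in pool 2 and 2.57 in pool 1, venous genes 2.39 and 0.643, and arterial genes 1.58 and 1.62. The arterial genes Gkn3 and Bmx were listed at 0 in pool 2, and Mgp was at 33.97 FPKM there against 108 in pool 1. Of the venous genes, Slc38a5 was at 107 FPKM in pool 2 and 0.0341 in pool 1, while Nr2f2 was at 7.16 and 8.59. All 23 identity genes were found in pool 2, and 3 in pool 1. Of the 23 measured barrier transporters, all 23 were found in pool 2 and 15 in pool 1. Pool 2 was not endothelial alone, since it held Tyrobp at 559 FPKM and the pericyte gene Rgs5 at 31.9. The comparison is of 1 library with 1 library and has no replicate check.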

How the data were processed

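RNA of single cells and of pools of 10 cells was sequenced. The authors deposited 1 table of FPKM values per gene, made with TopHat 1.41 and Cufflinks 2.02, per the submitters' processing notes. These name mm9, whereas the table's gene IDs and positions matched GRCm38 genes (96.2% of 39011 lines had a GENCODE M21 ID, and 99.8% of those overlapped), so GRCm38 coordinates are given. Of the gene symbols, 27 had been turned into dates and were restored from their IDs. Rows of 1 symbol were summed. FPKM keeps no counts, so depth was estimated from single-exon genes, with 200 bp taken as fragment length.

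The 8 cells were compared with the other 9 by the difference of mean log2(FPKM + 1), over protein-coding genes that reached 1 FPKM in 3 of 17 cells, and called at 4-fold. No p-values were computed, since the labels tie no cell to an animal. A fold on this scale understates the change of low genes. Members and the 37 gene lists were chosen with earlier results of these data known. Genes were named by fixed rules: the 5 markers, the 4 highest members of each list and those below 1 in all 8 cells, the 10 largest differences in each direction, the 10 most abundant, the 10 most variable, zonation genes and genes found in all 8 and none of 9. Some members of the lists are counted but not reported by name here. Other list members described with single-cell values were chosen after their values were seen. Alternatives were other pseudocounts, summaries, scalings, filters and each cell left out. Python 3.11.15, numpy 2.4.6, pandas 2.3.3, scipy 1.17.1 and Biopython 1.88 were used. Cells 18 to 28 were not compared.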

Additional observations from a re-analysis of the deposited data

Results flagged for a closer look

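In 7 of 42 measures over the 8 Flt1 cells, 1 cell lay far from the others: its gap to the nearest cell was over 0.526 of the whole range. This limit stands for a nominal chance rate of about 1 in 20 per measure. That rate need not hold here, because some lists share genes and some list means lie near the floor. The 7 cases are therefore named only for a closer look, and whether their number exceeds chance was not tested. All are means of log2(FPKM + 1) over a gene list.

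Cell 1 was low in tip cell genes, at 0.0417 against 0.976 to 1.67 in the other 7, and in basement membrane and integrin genes, at 2.22 against 3.73 to 4.76. It is also the cell with fewest genes found (3062). Cell 3 was high in Notch pathway genes, at 2.84 against 0.883 to 1.81, and in microglial and macrophage genes, at 5.19 against 0.0454 to 0.984. Cell 17 was high in sphingosine-1-phosphate genes, at 2.73 against 0.907 to 1.73. Cell 6 was high in erythroid genes, at 2.31 against 0 to 0.787, and in oligodendrocyte genes, at 2.95 against 0.392 to 1.39.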

How the results depend on the processing

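The members were the same 8 at a Flt1 threshold of 10 FPKM and 15 at 0.1. With a pseudocount of 0.1, 876 genes were higher and 3513 lower, with 10 they were 230 and 306, and 1099 were higher by the ratio of mean FPKM. The share of higher genes among those called was 24%, but 42.9% with a pseudocount of 10 and 36.6% without the 3 other cells with most genes found (774 higher, 1338 lower). Genes without overlap were 55 to 87 with 1 cell left out, 87 without cell 1, and 84 without those 3 other cells, an alternative chosen after seeing the data. With values under 1% of a gene's highest put at 0, also added later, the counts were 592, 1815 and 49.

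Of 851 recomputed list medians, 805 moved by less than 1 SD of the list's mean level over the 8 Flt1 cells, and 46 moved further. A list that differs much between cells has a wide SD, so this count does not show that a median is independent of single cells. The venous median fell from 0.98 to 0.00274 without cell 16, which lies within its SD of 1.95. With a pseudocount of 0.1 the medians were 11.06 for the 5 markers, 7.49 for identity, 6.16 for transporters, 5.54 for caveolae, 3.72 for VEGF and angiopoietin genes, 6.43 for capillary markers, 3.44 for the Wnt pathway, 2.84 for basement membrane, 9.69 for Ly6, -3.65 for astrocyte, -4.26 for oligodendrocyte and -3.08 for ependymal genes. By the ratio of means they were 8.66 for the 5 markers, 2.65 for caveolae, 3.38 for VEGF, 3.89 for venous, 4.29 for capillary, -0.68 for sphingosine-1-phosphate, 2.63 for basement membrane, 5.53 for Ly6, 3.32 for haemostasis, -1.72 for surface and stem cell, -6.18 for astrocyte, -6.92 for oligodendrocyte, -5.81 for ependymal and -3.79 for choroid plexus genes.

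With 1 cell left out, medians ranged from 1.22 to 2.35 for VEGF, 1.15 to 1.92 for junctions, -0.58 to 0 for surface and stem cell, -2.98 to -2.01 for astrocyte, -3.54 to -2.31 for oligodendrocyte and -2.10 to -1.28 for ependymal genes. Without the 3 richest other cells they were -3.69, -1.64 and -2.31 for astrocyte, oligodendrocyte and ependymal genes. The cause was not tested. Of 23 alternatives, the median changed sign in 6 for sphingosine-1-phosphate, 3 for cyclin D and inhibitor, 2 for microglial and macrophage and 2 for choroid plexus genes, the last from -0.73 to 0.05 without cell 5 or without the 3 richest other cells.

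No paired analysis was possible because the labels pair no libraries, no test was made, and pools 3 and 4, which hold private genes of the single cells, are not used as a group. The depth is an estimate, an exact 0 can be a failed estimate, and the 8 cells are 1 sample without a named animal, so the spread between cells is not a spread between animals.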
